A study of Mus musculus with 100 samples.

Results

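The loci of 10 genes of MHC class I antigen presentation (B2m, H2-K1, H2-D1, H2-T23, Tap1, Tap2, Tapbp, Psmb8, Psmb9 and Nlrc5) were examined in ChIP-seq data from mouse bone marrow-derived macrophages (BMDMs) and differentiating osteoclast precursors. Members were all regions that the deposited tables assign to one of these genes by nearest transcription start site (TSS), which gave 218 of 610301 regions over 15 tables. Of the 218 regions, 217 passed the filter on low tag numbers and were tested, and the other was a Tapbp region of a H3K27ac table.

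Cells of C57BL/6 mice were used throughout. ChIP targets in wild-type BMDMs were PU.1, which marks the myeloid lineage, p65 of NFκB, Fosl2 of AP-1, NCoR (a corepressor) with the deacetylase HDAC3 that it recruits, p300 (an acetyltransferase), PGC1β (a coactivator) and ERK1 (a MAP kinase). The cells were given Kdo2 lipid A (KLA), which activates TLR4, for 6 h, or vehicle (Veh). The labels give 6 h for the vehicle of NCoR, HDAC3, p65, PU.1 and Fosl2. They give 0 h of KLA for the p300 controls, called Veh here, and no vehicle time for PGC1β and ERK1. PGC1β was also measured in wild-type BMDMs given DMSO with Veh, DMSO with KLA, or the ERK inhibitor LY3214996 (ERKi) with KLA, and NCoR was measured with ERKi and KLA. For these inhibitor libraries the labels give no time. H3K27ac, the acetylation of histone H3 at lysine 27 found at active regulatory DNA, was measured in 3 experiments. They held NCoR flox/flox BMDMs without Cre (called WT) or with LysMCre (NKO), PGC1b flox/flox BMDMs without or with LysMCre (flox and flox Cre), each given Veh or KLA, and wild-type BMDMs given DMSO with Veh, DMSO with KLA, or the HDAC3 inhibitor RGFP966 with KLA. LysMCre is expressed in the myeloid lineage, and the degree of deletion cannot be read from these data. ERK1 and p300 were also measured in wild-type bone marrow cells on day 0 and day 4 of osteoclast culture. Every group consisted of 2 libraries that the study calls biological replicates. The labels do not say how many animals they came from, so p-values measure the spread between these libraries.

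MHC class I molecules show peptides from inside the cell to CD8 T cells. Cytosolic proteins are cut by the proteasome, whose inducible catalytic subunits Psmb8 and Psmb9 form the immunoproteasome. The peptides enter the endoplasmic reticulum through the transporter Tap1-Tap2 and are loaded, with the help of the chaperone tapasin (Tapbp), onto a heavy chain (the classical H2-K1 and H2-D1 or the nonclassical H2-T23) paired with β2-microglobulin (B2m). Transcription of these genes is controlled through conserved promoter elements bound by NFκB, interferon regulatory factors (IRFs) and an enhanceosome that the coactivator Nlrc5 joins, and macrophages raise the pathway when they meet microbial products or interferon.

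Libraries held 4.30 to 21.5 M tags, of which 2.79% to 52.8% fell in the listed regions. Promoter regions of all 6 macrophage markers examined (Adgre1, Csf1r, Cd68, Lyz2, Itgam and Mertk) were listed in 11 of the 15 tables, 5 of 6 in both ERK1 tables and the p300 table of osteoclast culture, and 3 of 6 in the H3K27ac table of WT and NKO cells. No promoter region of the 4 T cell markers was listed in any table. Single markers of other lineages were listed, among them Ms4a1 of B cells and Pdgfra of fibroblasts (for PGC1β only). Xcr1 of dendritic cells held 237 to 258 summed tags per 10 M in the PU.1 libraries. Levels are given below as tags per 10 M tags of the library, and log2 differences with ± their standard error (SE). A region was called when its Benjamini-Hochberg adjusted p-value in edgeR was under 0.05 over all regions of the table and its change was more than 2-fold, with library totals as the scale. The choice of scale matters here. Scaling to the bulk of regions instead (TMM) moved the median log2 difference of all regions by more than 0.1 in 22 of 25 comparisons, by -1.61 to 1.16, and so calls that depend on it are named beside their values. DESeq2 was run with its own scale from the region counts, which is likewise not that of library totals. A call lost both with TMM and in DESeq2 is therefore not lost in 2 separate ways.

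The regions of the 10 genes fell into 43 sites when centres within 500 bp were joined, 19 within 2000 bp of a TSS and 24 farther away. B2m had 52 regions and H2-D1 49, whereas Nlrc5 had 20, Tapbp 19, Psmb9 17, H2-K1 15, Tap2 14, H2-T23 13, Psmb8 10 and Tap1 9. Of the sites, 11 were listed in 1 table and 5 in 10 tables or more. The 5 were the promoters of B2m (13 tables), H2-D1 (14) and Tapbp (14) and the intergenic sites of H2-D1 at about -5521 bp (11) and -3822 bp (15). All regions of Tap1, Tapbp and Psmb8 lay within 2000 bp of the TSS. No Nlrc5 region did, and its regions lay from -14781 to 13354 bp.

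Sequences are shown for the promoters and regions that the results below turn on. They were read from mm10 and are written on the plus strand, 5′ to 3′, with matches to sought motifs in capitals. The promoters of B2m (chr2:122147437-122147686), H2-D1 (chr17:35262844-35263093) and Tapbp (chr17:33919326-33919477) end at the base before the TSS, as RefSeq gives them.
B2m promoter: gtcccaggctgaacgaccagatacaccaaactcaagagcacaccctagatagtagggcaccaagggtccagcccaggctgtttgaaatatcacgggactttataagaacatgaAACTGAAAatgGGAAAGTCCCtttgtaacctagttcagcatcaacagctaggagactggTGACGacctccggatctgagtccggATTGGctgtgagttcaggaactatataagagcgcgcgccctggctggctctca
H2-D1 promoter: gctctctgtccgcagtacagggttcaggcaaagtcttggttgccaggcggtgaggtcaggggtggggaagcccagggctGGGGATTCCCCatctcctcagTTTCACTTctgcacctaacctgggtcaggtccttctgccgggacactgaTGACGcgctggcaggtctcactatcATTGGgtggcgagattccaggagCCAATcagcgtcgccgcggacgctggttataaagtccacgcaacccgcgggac
Tapbp promoter: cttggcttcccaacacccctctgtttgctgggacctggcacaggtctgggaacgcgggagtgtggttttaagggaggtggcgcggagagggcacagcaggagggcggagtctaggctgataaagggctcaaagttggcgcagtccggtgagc
The 225 bases between the divergent starts of Psmb9 and Tap1 (chr17:34187331-34187555) serve both genes.
Psmb9-Tap1 promoter: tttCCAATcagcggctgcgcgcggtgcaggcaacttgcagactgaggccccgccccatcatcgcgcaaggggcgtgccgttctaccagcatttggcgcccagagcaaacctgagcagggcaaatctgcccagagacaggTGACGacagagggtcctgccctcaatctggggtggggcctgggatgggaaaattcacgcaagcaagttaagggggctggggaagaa
The next 3 are 200 bases around the centres of regions that gained factor binding with KLA, upstream of B2m (chr2:122145867-122146066), in intron 2 of H2-T23 (chr17:36031914-36032113) and upstream of Nlrc5 (chr8:94458630-94458829). Those of B2m and H2-T23 lie within 2000 bp of the TSS.
B2m upstream region: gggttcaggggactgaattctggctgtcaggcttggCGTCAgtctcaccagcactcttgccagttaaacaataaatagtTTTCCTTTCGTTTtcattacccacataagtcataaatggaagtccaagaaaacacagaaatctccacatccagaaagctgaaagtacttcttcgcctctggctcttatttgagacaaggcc
H2-T23 intronic region: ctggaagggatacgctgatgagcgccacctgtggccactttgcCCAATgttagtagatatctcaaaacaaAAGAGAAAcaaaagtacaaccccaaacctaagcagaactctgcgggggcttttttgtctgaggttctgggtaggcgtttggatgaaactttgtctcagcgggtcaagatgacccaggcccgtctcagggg
Nlrc5 upstream region: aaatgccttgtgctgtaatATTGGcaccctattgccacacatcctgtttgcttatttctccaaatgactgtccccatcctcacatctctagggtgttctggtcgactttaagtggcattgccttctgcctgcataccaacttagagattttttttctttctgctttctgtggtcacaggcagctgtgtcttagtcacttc

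The motifs were sought on both strands. They were AANNGAAA (IRF type), CCAAT (the box bound by NF-Y), the NFκB consensus, TGACG (the X2 box type), TGANTCA (AP-1) and GAGGAAG (a PU.1 core). In the B2m promoter, AANNGAAA and the NFκB match lie next to each other, followed by TGACG and CCAAT. The H2-D1 promoter holds the same 4 motifs in the order NFκB, AANNGAAA, TGACG and then CCAAT, with 2 matches to the last and a palindromic NFκB stretch that matches on both strands at overlapping positions. The Psmb9-Tap1 promoter holds CCAAT and TGACG, and the printed bases of the Tapbp promoter hold none of the 6. They are 152 bases, without those that belong to the end of the Zbtb22 transcript. The 250 bases before the Tapbp TSS hold 2 CCAAT matches. Of the 8 member genes with a promoter in the RefSeq table (250 bases each), 3 (B2m, H2-K1 and H2-D1) matched the NFκB consensus, against 3.90% of all 32851 promoters. AANNGAAA was found in 4 of 8 (21.3% of all), TGACG in 5 (17.8%) and CCAAT in 7 (33.8%), while TGANTCA (6.75%) and GAGGAAG (10.6%) were found in none. Psmb8 matched none of the 6. Psmb9 and Tap1 share their promoter, so its TGACG and CCAAT matches were counted for both genes. With the similar promoters of H2-K1 and H2-D1, the 8 are not independent. In the upstream B2m region, 2 overlapping AANNGAAA matches and TGACG were found, in the H2-T23 region AANNGAAA and CCAAT, and in the Nlrc5 region CCAAT. Of all NCoR regions (200 bases), 33.1% held AANNGAAA, 5.34% the NFκB consensus, 21.4% CCAAT, 11.6% TGACG, 20.9% TGANTCA and 24.4% GAGGAAG. In p300 regions the shares were 29.4%, 5.37%, 22.1%, 11.1%, 23.1% and 23.3%. The upstream bases of H2-K1 and H2-D1 were identical at 166 of 190 ungapped positions (87.4%). Reads from these near-identical genes, and from H2-T23, may be split between copies or lost in mapping, so their tag numbers are less certain than those of the other members.

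With KLA, NCoR and HDAC3 were called higher at a minority of the class I regions, for NCoR near the share of all its regions. NCoR was higher at 5 and lower at 1 of 23 tested regions, beside 23.4% higher and 16.7% lower of all NCoR regions. HDAC3 was higher at 8 of 21 and lower at 0, beside 27.5% higher and 11.3% lower of all. With TMM it was higher at 7 and lower at 2, beside 11800 higher and 7913 lower of all 48502 HDAC3 regions. The class I counts of both factors changed when single libraries were left out, and so did the counts over all regions. Such a fit leaves 1 library in a group, so these changes cannot be read as particular to the class I regions. Without KLA replicate 1 of HDAC3 the class I median log2 difference became 1.06 (0.57 over all regions). Without KLA replicate 2 it became 0.27 (-0.04 over all regions). KLA replicate 2 of HDAC3 was above replicate 1 at 20 of 21 class I regions and at 87.5% of all regions. The median log2 difference was 0.29 for NCoR at these loci (0.10 over all regions) and 0.74 for HDAC3 (0.27).

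PGC1β was higher at 1 and lower at 1 of 10 regions (16.4% and 6.35% of all), with a median of -0.10 against 0.06, and 1 was called without Veh replicate 2. In the separate experiment with DMSO it was higher at 2 of 27 (16.4% of all), with a median of 0.67 against 0.45. Both of these calls were lost with TMM, which called 0 regions higher and 2 lower, beside 4658 higher and 1543 lower of all 53474. On library totals fewer class I regions were called without Veh replicate 2 or KLA replicate 1, as were fewer of all regions. ERK1 was called at 0 of 15 regions by edgeR and by DESeq2 (12.9% of all by edgeR), with 4 higher and 1 lower at an unadjusted p under 0.05 and a median of 0.69 against 0.26. Without either Veh library 1 ERK1 region was called. In simulated data of this comparison, where regions drawn from the whole table were changed, 21.5% of changed regions were recovered.

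Among the other factors, p65 was higher at 8 of 16 regions, beside 57.0% of all, and its median of 1.01 was below the 1.46 of all p65 regions. With TMM, 0 of the 16 were higher and 3 lower, and the median became -0.22. Of all 52629 p65 regions, TMM called 14540 higher and 11205 lower, with a median of 0.24. Without Veh replicate 1 or KLA replicate 1, 4 p65 regions were called, and without KLA replicate 2, 1. With TMM the split of all p65 calls moved, from 91.3% to 56.5% higher. p300 was higher at 1 and lower at 4 of 18 regions, whereas 42.1% of all p300 regions were called higher and 12.9% lower, and the medians were -0.17 and 0.65. TMM gave 1 higher and 7 lower of the 18, beside 22267 higher and 16245 lower of all 67998 p300 regions. Fewer class I p300 regions were called without either KLA library. PU.1 was called at 0 of 24 regions by edgeR (26.3% of all), with 6 higher and 10 lower at an unadjusted p under 0.05, while DESeq2 called 1 higher and edgeR without KLA replicate 1 called 1 lower. Fosl2 was called at 0 of 7 by both tools (15.6% of all), with 0 at an unadjusted p under 0.05. In simulated Fosl2 data 0.5% of regions changed 3-fold were recovered, drawn from the whole table. The lack of calls at these 7 regions therefore cannot be read as a lack of change.

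**Figure D1:**
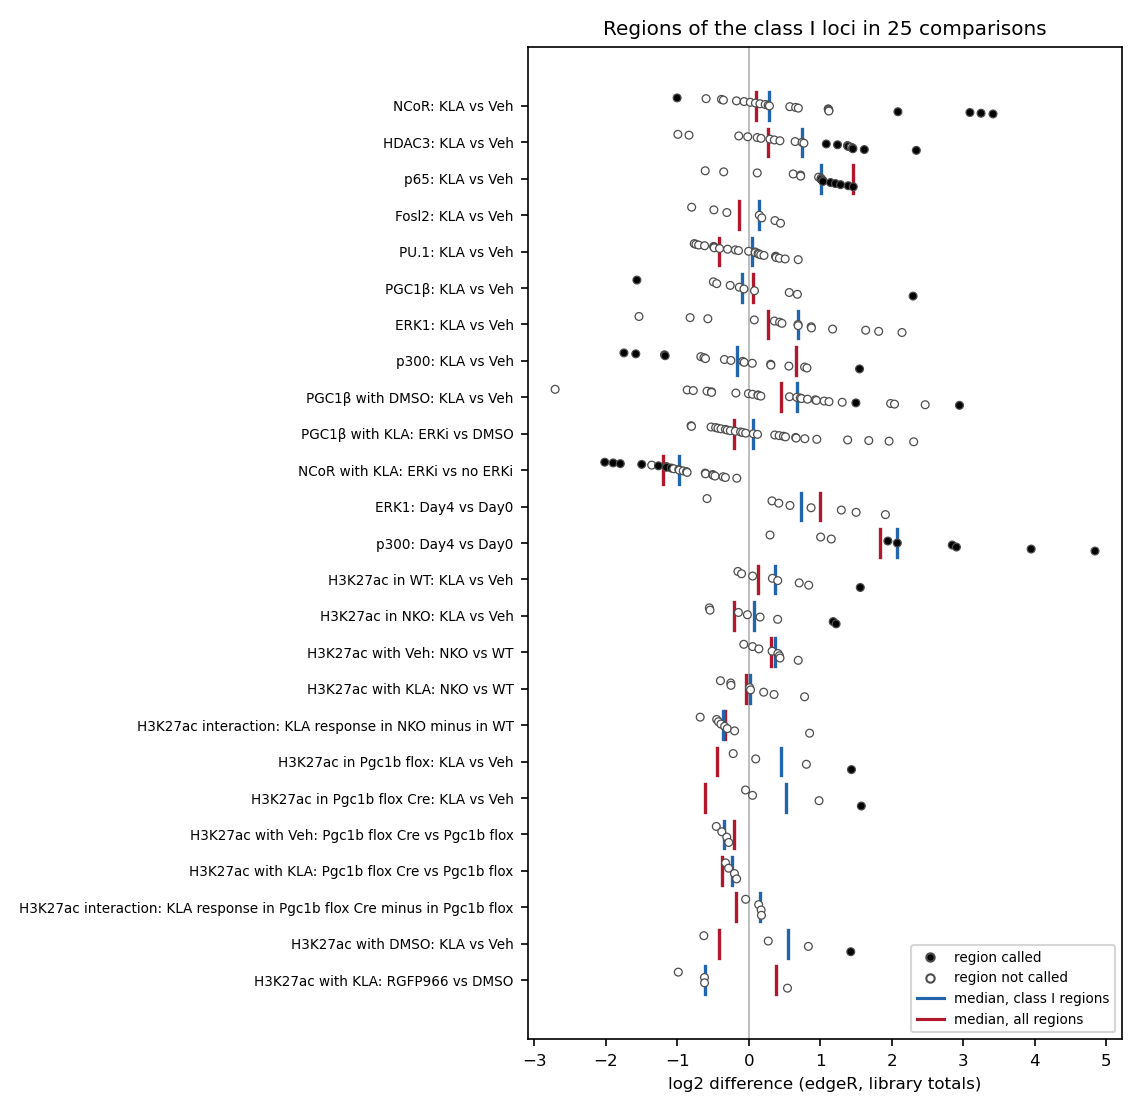
EdgeR log2 differences of the class I regions in the 25 comparisons (circles, black when called), with their median (blue) and the median of all regions of the table (red). On library totals the medians of all regions lie far from 0 for p65, ERKi on NCoR and day 4, and there most class I calls are lost with TMM.

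**Figure D2:**
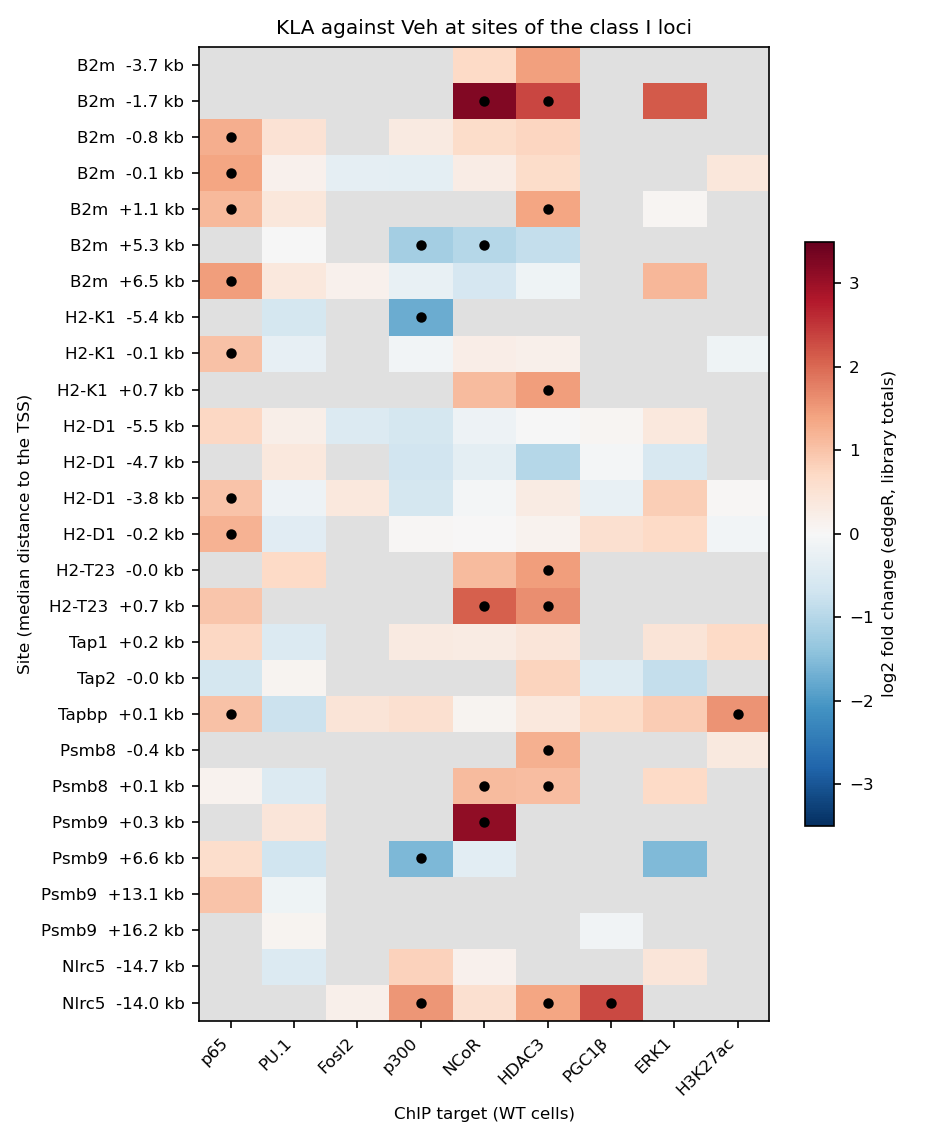
KLA against Veh at the 27 class I sites listed for at least 2 of the 9 targets (H3K27ac from WT cells of the WT and NKO experiment). Colour gives the edgeR log2 fold change on library totals, dots mark called regions and grey marks no listed region; the 8 p65 calls, all higher here, are lost with TMM, where 3 p65 regions are called lower.

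At the Psmb8 promoter NCoR held 40.6 and 29.4 tags per 10 M in the Veh libraries and 87.5 and 64.3 in the KLA libraries (log2 difference 1.11 ± 0.34, adjusted p = 0.0203 in edgeR). The groups did not overlap, and the call was lost without KLA replicate 1, KLA replicate 2 or Veh replicate 2 (0.88 to 1.32). HDAC3 at the same site held 45.1 and 43.7 with Veh and 77.4 and 114 with KLA (log2 difference 1.08 ± 0.39, adjusted p = 0.0158 in edgeR). Both KLA libraries were above both Veh libraries, yet the call did not hold without KLA replicate 2, Veh replicate 1 or Veh replicate 2 (0.80 to 1.12), with TMM (0.80) and in DESeq2 (0.82). PU.1, which was abundant there, held 176 and 184 with Veh and 131 and 125 with KLA (log2 difference -0.49 ± 0.11, adjusted p = 2.44e-05 in edgeR). This fall was under 2-fold and not called. With TMM the PU.1 levels of all regions moved up by 0.42 on the log2 scale, close to the size of this fall. p65 was 58.7 and 59.7 and 66.1 and 62.3, a log2 difference of 0.12 ± 0.29 that became -1.11 with TMM and was then called lower (edgeR adjusted p = 0.00540).

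Upstream of the Psmb8 TSS, H3K27ac at -411 bp was 23.3 and 21.4 in WT cells with Veh and 23.9 and 32.4 with KLA, a difference that was not called (log2 difference 0.33 ± 0.35, adjusted p = 0.588 in edgeR). In NKO cells it was 23.6 and 19.2 with Veh and 47.3 and 49.3 with KLA (log2 difference 1.18 ± 0.34, adjusted p = 0.0138 in edgeR). The NKO call was lost without NKO KLA replicate 1, NKO KLA replicate 2 or NKO Veh replicate 2 (1.03 to 1.21). The responses of the 2 genotypes differed by a log2 value of 0.85 ± 0.49, which did not pass the interaction test (edgeR adjusted p = 0.439). HDAC3 at -466 bp was 16.7 and 22.7 with Veh and 35.8 and 61.5 with KLA (log2 difference 1.24 ± 0.48, adjusted p = 0.0274 in edgeR), a call lost without KLA replicate 2, Veh replicate 1 or Veh replicate 2 (0.84 to 1.5), with TMM (0.94) and in DESeq2 (0.97).

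At Psmb9, whose promoter is shared with Tap1, an NCoR region at 331 bp was called higher with KLA. It passed the filter of 4 tags only through its KLA libraries, so the filter and the direction of this call are not independent. Its levels were 0 and 3.53 with Veh and 15.4 and 16.6 with KLA (log2 difference 3.09 ± 0.86, adjusted p = 0.0137 in edgeR). Because the Veh libraries held 3 tags in all, the ratio of 9.02 has a 95% exact counting interval of 2.89 to 45.4, and the call was lost without KLA replicate 1 or KLA replicate 2 (3.03 to 3.14) and with the replicate number as a block (3.23). The intergenic Psmb9 site near 6591 bp moved the other way for p300, with 35.1 and 28.3 in Veh and 7.67 and 13.5 in KLA libraries (log2 difference -1.58 ± 0.44, adjusted p = 0.00517 in edgeR). Both KLA libraries were below the Veh libraries, and the call was lost only without KLA replicate 1 (-1.23). PU.1 at this site was 148 and 161 and 87.7 and 101 (log2 difference -0.70 ± 0.12, adjusted p = 1.54e-07 in edgeR), under the 2-fold limit, while ERK1 was 26.7 and 45.1 and 8.61 and 16.3 and did not pass the test (edgeR adjusted p = 0.126).

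At the transporter genes no factor change with KLA was called on library totals. At the Tap1 promoter, H3K27ac in WT cells was 148 and 151 with Veh and 225 and 263 with KLA (log2 difference 0.70 ± 0.14, adjusted p = 2.41e-04 in edgeR). In NKO cells it was 195 and 181 and 259 and 237 (log2 difference 0.40 ± 0.14, adjusted p = 0.0414 in edgeR). Both rises passed the test on the adjusted p but stayed under 2-fold, and the difference between them of -0.30 ± 0.20 did not (edgeR adjusted p = 0.505). p65 at the Tap1 promoter was 81.4 and 71.8 with Veh and 126 and 127 with KLA, PU.1 137 and 133 and 98.8 and 93.7, and NCoR 27.5 and 51.8 and 47.8 and 49.1. The p65 and PU.1 differences passed the test on the adjusted p, at log2 values of 0.72 ± 0.24 and -0.48 ± 0.12, but not the fold limit, and became -0.50 and -0.069 with TMM. The NCoR groups overlapped. At the Tap2 promoter p65 was 56.0 and 58.7 with Veh and 31.4 and 43.8 with KLA, which did not pass the test on library totals (log2 difference -0.61 ± 0.34, adjusted p = 0.138 in edgeR) and was called lower with TMM. No H3K27ac region of Tap2 was listed.

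Tapbp held the H3K27ac calls of the loci that were repeated across experiments. H3K27ac at its promoter rose with KLA in the 5 comparisons of KLA with Veh, and each of these calls held under each alternative tried. In WT cells the region at 318 bp held 41.6 and 56.5 with Veh and 133 and 159 with KLA (log2 difference 1.56 ± 0.19, adjusted p = 2.81e-08 in edgeR). In NKO cells it held 70.0 and 88.8 and 187 and 185 (log2 difference 1.22 ± 0.18, adjusted p = 2.73e-06 in edgeR). The KLA libraries were above the Veh libraries of the same genotype in both. A weaker region of the same table at 46 bp was not called in either genotype (edgeR adjusted p = 0.175 and 0.850). The region at 52 bp held 150.4 and 195 with Veh and 468 and 458 with KLA in Pgc1b flox cells (log2 difference 1.44 ± 0.10, adjusted p = 7.37e-45 in edgeR). In flox Cre cells the values were 143 and 133 and 410.3 and 412 (log2 difference 1.57 ± 0.10, adjusted p = 6.04e-48 in edgeR). With DMSO in wild-type cells they were 160.3 and 151 and 459.8 and 375 (log2 difference 1.43 ± 0.20, adjusted p = 2.78e-11 in edgeR). The flox and DMSO experiments were counted over the same region and the WT and NKO experiment over a narrower one, and no level was compared between experiments. Since the promoter overlaps the end of the neighbouring gene Zbtb22, tags there are not of Tapbp alone.

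Among the factors at the Tapbp promoter, p65 was the one called. p65 held 102 and 169 with Veh and 266 and 288 with KLA (log2 difference 1.03 ± 0.24, adjusted p = 0.00328 in edgeR), a call lost without KLA replicate 1, KLA replicate 2 or Veh replicate 1 (0.72 to 1.09), with TMM (-0.18) and in DESeq2 (-0.14). PU.1 fell from 225 and 246 to 135 and 142 by the adjusted p, but by less than 2-fold (log2 difference -0.76 ± 0.10, adjusted p = 1.32e-11 in edgeR). p300 was 77.7 and 53.9 and 112 and 82.7 (log2 difference 0.56 ± 0.24, adjusted p = 0.0470 in edgeR), also under 2-fold. NCoR was 83.6 and 107 with Veh and 118 and 85.8 with KLA, and HDAC3 98.2 and 79.6 and 95.5 and 135, with overlapping groups for both.

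**Figure D3:**
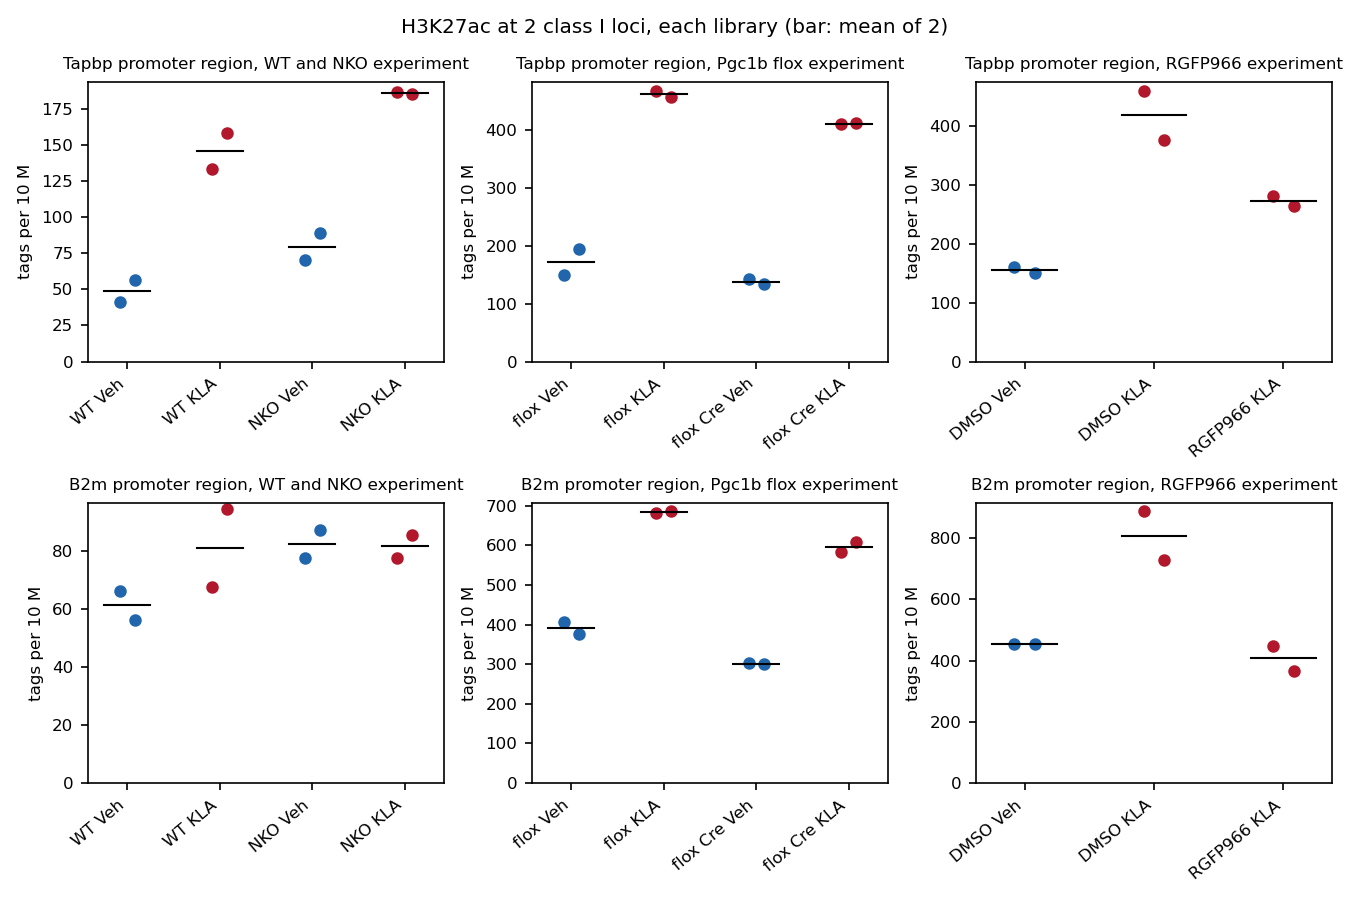
H3K27ac in tags per 10 M at the promoter regions of Tapbp (top) and B2m (bottom) in each library of the 3 H3K27ac experiments. Points are libraries (red with KLA, blue with Veh) and bars the mean of 2; at Tapbp the KLA libraries without RGFP966 lie above the Veh libraries of the same genotype in each panel.

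B2m, the light chain of every class I molecule, had an upstream site where NCoR and HDAC3 were both called higher. It lies in intron 2 of the overlapping gene Patl2, and its bases are printed above with 2 AANNGAAA matches. NCoR held 10.8 and 1.18 with Veh and 67.2 and 47.7 with KLA there (log2 difference 3.25 ± 0.63, adjusted p = 0.00218 in edgeR), a call kept in every alternative. HDAC3 held 14.5 and 10.5 and 46.3 and 84.3 (log2 difference 2.34 ± 0.49, adjusted p = 1.19e-05 in edgeR), a call lost only without Veh replicate 2 (2.13). PGC1β in the DMSO experiment held 17.1 and 32.1 and 65.1 and 70.0 (log2 difference 1.5 ± 0.51, adjusted p = 0.0418 in edgeR). In all 3 the KLA libraries were above the Veh libraries, but the PGC1β call was lost without KLA replicate 1, KLA replicate 2 or Veh replicate 1 (1.07 to 1.55), with TMM (1.08), in DESeq2 (1.06) and with the replicate number as a block (1.51). ERK1 was 4.72 and 16.2 with Veh and 59.0 and 38.1 with KLA, just outside the call (log2 difference 2.14 ± 0.65, adjusted p = 0.0506 in edgeR). No p65, PU.1, p300, Fosl2 or H3K27ac region was listed at this site.

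The B2m promoter itself was listed for all 9 targets over the 15 tables, with ERK1 there only in the osteoclast table and PGC1β only in the table with DMSO and ERKi. p65 was 111 and 129 with Veh and 276 and 352 with KLA (log2 difference 1.39 ± 0.21, adjusted p = 2.19e-04 in edgeR), and with every library left out in turn it stayed called. The call was lost with TMM (0.16) and in DESeq2 (0.20). NCoR was 77.7 in both Veh libraries and 94.8 and 92.7 with KLA, HDAC3 73.5 and 60.3 and 80.3 and 133, and p300 97.8 and 143 and 100.3 and 89.2. None of these 3 passed the test (edgeR adjusted p = 0.391, 0.154 and 0.153).

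H3K27ac at the B2m promoter passed the test on the adjusted p in 3 of the 5 KLA comparisons, each time under 2-fold on library totals. It was 407 and 376 with Veh and 683 and 688 with KLA in Pgc1b flox cells (log2 difference 0.80 ± 0.074, adjusted p = 1.15e-25 in edgeR). In flox Cre cells it was 303 and 300.5 and 583 and 609 (log2 difference 0.98 ± 0.078, adjusted p = 1.71e-33 in edgeR). With DMSO it was 455 and 453 and 888 and 727 (log2 difference 0.83 ± 0.19, adjusted p = 3.68e-05 in edgeR). With TMM these 3 regions were called, at more than 2-fold. In WT cells of the NKO experiment the values were 66.2 and 56.0 and 67.3 and 94.4 (edgeR adjusted p = 0.225), and in NKO cells 77.4 and 87.1 and 77.5 and 85.4 (edgeR adjusted p = 0.968). The NKO groups overlapped.

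Other B2m sites moved in different directions. At 5275 bp, in exon 4 of 4, NCoR was 87.2 and 67.1 with Veh and 38.9 and 38 with KLA (log2 difference -1.0 ± 0.31, adjusted p = 0.0219 in edgeR). This was the only NCoR region of the loci called lower, and the call was lost without KLA replicate 1, KLA replicate 2 or Veh replicate 1 (-1.02 to -0.80), in DESeq2 (-0.99) and with the replicate number as a block (-0.99). p300 at 5421 bp was 28.8 and 29.6 and 14.3 and 11.3 (log2 difference -1.18 ± 0.41, adjusted p = 0.0200 in edgeR), a call lost without KLA replicate 1 or KLA replicate 2 (-1.36 to -1.02). A weaker p300 region at 386 bp was 16.9 and 16.4 and 6.14 and 8.65 (log2 difference -1.17 ± 0.50, adjusted p = 0.0499 in edgeR), lost without KLA replicate 1, KLA replicate 2 or Veh replicate 1 (-1.43 to -0.94) and with the replicate number as a block (-1.18). The remaining B2m calls were higher with KLA. HDAC3 at 1100 bp was 19.6 and 25.4 and 40.4 and 82.5 (log2 difference 1.38 ± 0.45, adjusted p = 0.00741 in edgeR), lost without KLA replicate 2, Veh replicate 1 or Veh replicate 2 (0.83 to 1.61). p65 was called at -828, 1069 and 6461 bp with log2 fold changes of 1.28, 1.14 and 1.46. All 3 were lost with TMM (1.28 became 0.065, 1.14 became -0.072 and 1.46 became 0.27), in DESeq2 and without either KLA library, and those at 1069 and 6461 bp also without Veh replicate 1.

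The classical heavy chain genes H2-K1 and H2-D1 held strong binding, with p65 called at both promoters on library totals and NCoR at neither. At the H2-D1 promoter, p65 was 97.2 and 88.6 with Veh and 194 and 236 with KLA (log2 difference 1.21 ± 0.22, adjusted p = 6.72e-04 in edgeR), a call lost without KLA replicate 2 (1.06), with TMM (-0.022) and in DESeq2 (0.011). At the H2-K1 promoter it was 84.1 and 124 and 198 and 228 (log2 difference 1.04 ± 0.24, adjusted p = 0.00299 in edgeR), lost without KLA replicate 2 or Veh replicate 1 (0.78 to 0.93), with TMM (-0.18) and in DESeq2 (-0.15). PU.1 at these promoters was 316 and 362 with Veh and 249 and 259 with KLA (H2-D1) and 350.1 and 378 and 289.8 and 301 (H2-K1). Both PU.1 differences passed the test on the adjusted p, at log2 values of -0.41 ± 0.086 and -0.30 ± 0.083, beside a median of -0.41 over all PU.1 regions. With TMM they became 0.0075 and 0.12. NCoR held 146 and 234 and 198 and 187 at H2-D1 and 65.7 and 114 and 92.3 and 118 at H2-K1, and both pairs of groups overlapped.

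Intergenic sites upstream of H2-D1 were among the most widely occupied. The site near -3822 bp was listed in all 15 tables. p65 there was 69.2 and 78.3 with Veh and 131 and 166 with KLA (log2 difference 1.01 ± 0.25, adjusted p = 0.00416 in edgeR), lost without KLA replicate 2 or Veh replicate 1 (0.83 to 0.92), with TMM (-0.22) and in DESeq2 (-0.18). p300 was 123 and 130.1 and 81.3 and 84.8 (log2 difference -0.61 ± 0.18, adjusted p = 0.00854 in edgeR), lower by less than 2-fold on library totals. H3K27ac was 277 and 327 with DMSO and Veh and 209 and 181 with DMSO and KLA (log2 difference -0.63 ± 0.20, adjusted p = 0.00460 in edgeR), again lower by less than 2-fold. In Pgc1b flox cells it was 254 and 247 and 212 and 218 (edgeR adjusted p = 0.0810), and in WT cells of the NKO experiment 18.3 and 19.4 and 25.8 and 13.1. At the neighbouring sites p300 was 143 and 125 and 89.5 and 83.8 at -5543 bp, and 68.9 and 72.3 and 49.6 and 38.9 at -4701 bp. The KLA libraries were below the Veh libraries at all 3 sites, and the log2 values of -0.63, -0.67 and -0.61 passed the adjusted p but not the fold limit. With TMM these p300 values became -1.15, -1.19 and -1.13, and all 3 were called lower. Upstream of H2-K1, p300 at -5360 bp was 22.6 and 18.4 and 4.60 and 7.57 (log2 difference -1.75 ± 0.51, adjusted p = 0.00709 in edgeR), the largest fall of p300 among the class I regions, lost only without KLA replicate 1 (-1.43). PU.1 at -5351 bp was 115 and 99.6 and 76.5 and 63.7 (log2 difference -0.62 ± 0.15, adjusted p = 8.76e-05 in edgeR). In intron 2 of H2-K1, HDAC3 at 674 bp was 13.1 and 12.7 and 19.9 and 56.2 (log2 difference 1.45 ± 0.57, adjusted p = 0.0278 in edgeR), lost without KLA replicate 2, Veh replicate 1 or Veh replicate 2 (0.62 to 1.49) and in DESeq2 (1.15).

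H2-T23, a nonclassical heavy chain (Qa-1), gained NCoR and HDAC3 binding in its intron 2, at the region printed above. NCoR was 19.1 and 9.42 with Veh and 60.7 and 60.9 with KLA (log2 difference 2.09 ± 0.43, adjusted p = 0.00300 in edgeR), a call kept in every alternative. HDAC3 at 712 bp was 16.7 and 28.8 and 42.2 and 105 (log2 difference 1.61 ± 0.44, adjusted p = 0.00105 in edgeR), lost without KLA replicate 2, Veh replicate 1 or Veh replicate 2 (0.86 to 2.10). p65 at 680 bp was 28.0 and 33.6 and 50.8 and 70.5 (log2 difference 0.98 ± 0.36, adjusted p = 0.0326 in edgeR), just under 2-fold, and -0.25 with TMM. In tags per 10 M the KLA libraries lay above the Veh libraries for all 3 factors. PGC1β in the DMSO experiment was 13.8 and 18.9 and 17.8 and 29.8, with overlapping groups. At the H2-T23 promoter HDAC3 was 18.9 and 19.4 and 31.6 and 79.0 (log2 difference 1.45 ± 0.48, adjusted p = 0.00769 in edgeR), lost without KLA replicate 2, Veh replicate 1 or Veh replicate 2 (0.72 to 1.49). PU.1 there was 94.6 and 89.0 with Veh and 156 and 141 with KLA (log2 difference 0.69 ± 0.12, adjusted p = 3.22e-07 in edgeR), higher by less than 2-fold on library totals and called at more than 2-fold with TMM.

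PGC1β at -2791 bp from H2-T23, in an intron of the noncoding gene A930015D03Rik, was lower with KLA. It was 94.6 and 99.9 with Veh and 38.2 and 28.6 with KLA (log2 difference -1.56 ± 0.31, adjusted p = 0.00135 in edgeR), lost only without Veh replicate 2 (-1.52). In the DMSO experiment the region at -2794 bp was 95.8 and 109 and 43.4 and 74.4 (log2 difference -0.78 ± 0.39, adjusted p = 0.173 in edgeR), which did not pass the test on library totals. With TMM this region was called lower (log2 difference -1.21, adjusted p = 0.0328 in edgeR). No other factor had a region at this site.

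Nlrc5, the coactivator of the class I promoters, gained binding at the upstream site near -14033 bp, which the files annotate as intergenic. p300 was 40.7 and 26.3 with Veh and 105 and 91.3 with KLA (log2 difference 1.55 ± 0.26, adjusted p = 8.06e-05 in edgeR). PGC1β was 8.81 and 6.04 and 41.5 and 32.0 (log2 difference 2.30 ± 0.47, adjusted p = 0.00178 in edgeR). Both calls were kept in every alternative, and the groups did not overlap. In the separate DMSO experiment PGC1β was 11.4 and 0 with Veh and 51.3 and 52.1 with KLA (log2 difference 2.95 ± 0.80, adjusted p = 0.0115 in edgeR), a call lost without Veh replicate 2 (2.17), with TMM (2.41) and in DESeq2 (2.53). HDAC3 was 12.4 and 27.1 and 34.6 and 75.5 (log2 difference 1.39 ± 0.47, adjusted p = 0.0101 in edgeR), lost without KLA replicate 2, Veh replicate 1 or Veh replicate 2 (0.77 to 2.10). NCoR was 8.36 and 28.2 and 29.2 and 25.6 (edgeR adjusted p = 0.418) and Fosl2 55.0 and 35.7 and 23.3 and 77.2, both with overlapping groups. NCoR was higher in intron 11 of Nlrc5, at 12739 bp, with 3.58 and 0 in Veh and 18.6 and 21.4 in KLA libraries (log2 difference 3.41 ± 0.83, adjusted p = 0.00720 in edgeR). The Veh libraries held 3 tags in all there, so that the ratio of 11.3 has a 95% exact counting interval of 3.67 to 56.6, and the call was lost without KLA replicate 1 or KLA replicate 2 (3.29 to 3.5). This region passed the filter only through its KLA libraries, so the filter and the direction of the call are not independent. No H3K27ac region was assigned to Nlrc5.

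**Figure D4:**
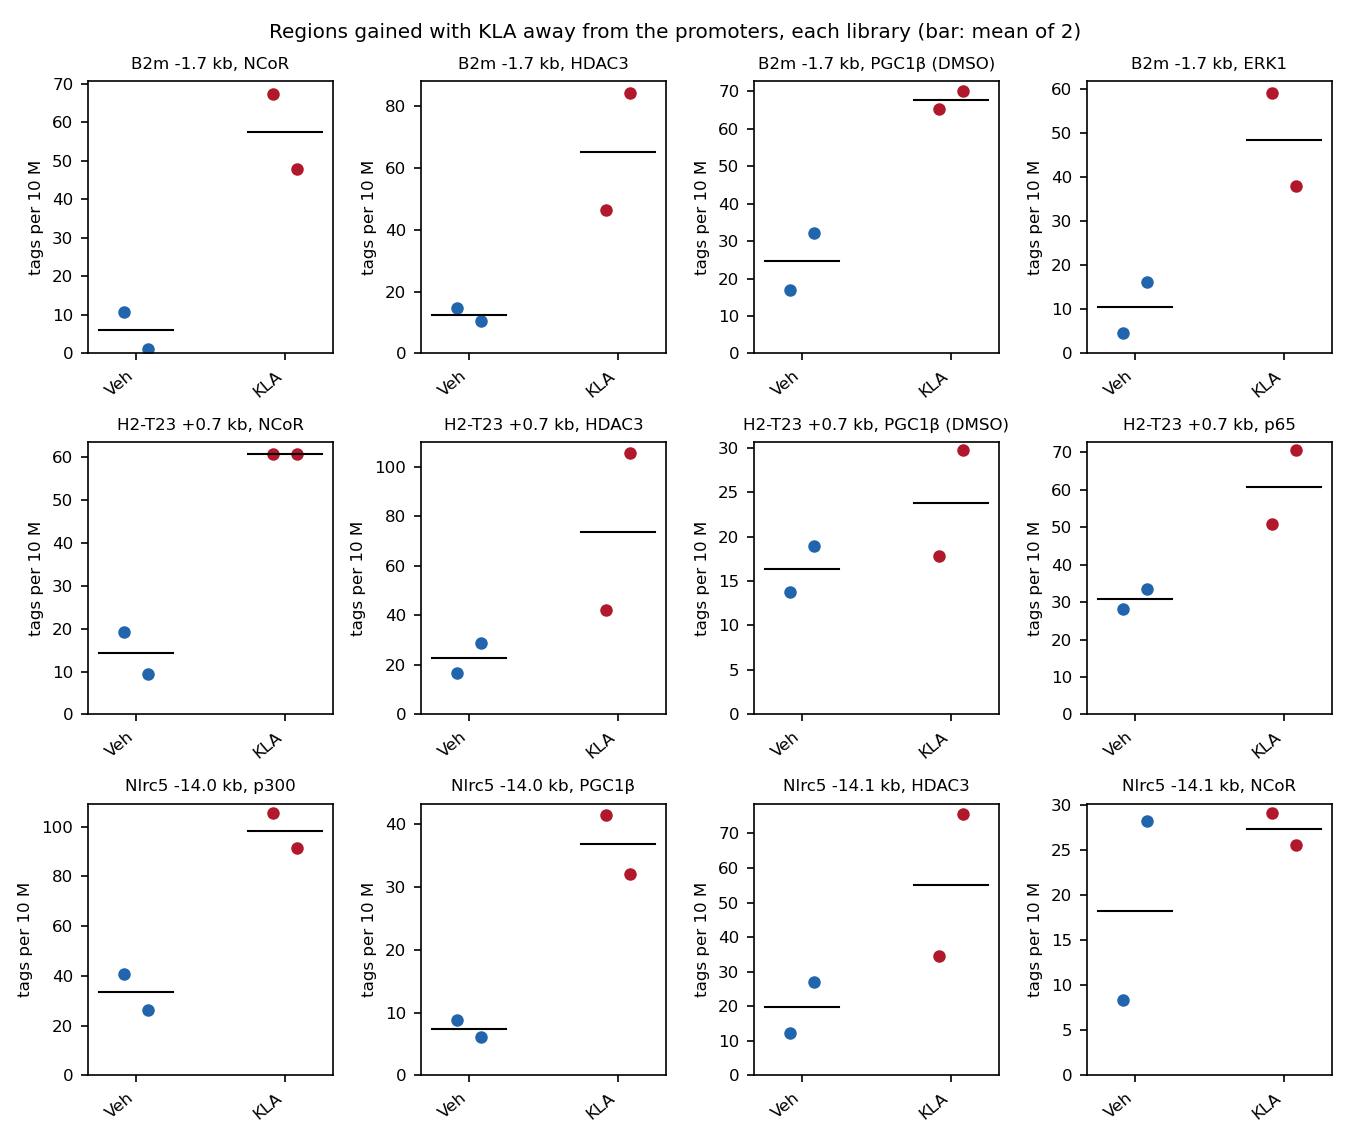
Tags per 10 M in each library at sites that gained binding with KLA, upstream of B2m (top), in intron 2 of H2-T23 (middle) and upstream of Nlrc5 (bottom). Points are libraries (blue Veh, red KLA), bars the mean of 2 and titles give the distance to the TSS and the target; PGC1β at H2-T23 and NCoR at Nlrc5 are the panels whose groups overlap.

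Loss of NCoR was not followed by a called change of H3K27ac at these loci. Of 8 tested regions, 0 were called between NKO and WT cells with Veh (1.00% of all regions), with KLA (0.789%) or in the difference of the KLA responses (0.697%), by edgeR and by DESeq2. At an unadjusted p under 0.05 there were 2, 2 and 0. In simulated data of these comparisons 60%, 66.5% and 33.5% of changed regions were recovered, so that a change may have been missed. The nearest to a call was the Tapbp region at 318 bp with Veh, which held 41.6 and 56.5 in WT and 70.0 and 88.8 in NKO cells (log2 difference 0.69 ± 0.20, adjusted p = 0.0599 in edgeR). Its KLA responses in the 2 genotypes differed by a log2 value of -0.34 ± 0.26 (edgeR adjusted p = 0.598). Within each genotype, KLA gave 1 region called higher of 8 in WT (6.49% of all higher) and 2 of 8 in NKO cells (2.75%). Those were the Tapbp region in both and the Psmb8 region at -411 bp in NKO. The median log2 difference with KLA was 0.37 in WT (0.13 over all regions) and 0.07 in NKO cells (-0.20). With TMM the class I medians were 0.22 and 0.27, so that their order depends on the scale.

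Cre in PGC1b flox/flox cells likewise left the 4 tested H3K27ac regions (B2m, Tapbp and 2 of H2-D1) uncalled. It gave 0 of 4 with Veh (0.397% of all regions called), 0 of 4 with KLA (7.52%) and 0 of 4 in the difference of KLA responses (5.37%), in edgeR and in DESeq2. All 4 regions were lower in flox Cre than in flox cells with Veh by the adjusted p, at log2 values of -0.28 to -0.45, as were 3 of 4 with KLA (the same numbers at an unadjusted p under 0.05), all under 2-fold. On TMM the median of the 4 regions was -0.14 with Veh and 0.15 with KLA, since TMM moved all regions up by 0.21 and 0.39. At the H2-D1 promoter the KLA libraries held 443 and 408 in flox and 339 in both in flox Cre cells (log2 difference -0.33 ± 0.085, adjusted p = 5.82e-04 in edgeR). KLA itself gave 1 of 4 higher, the Tapbp promoter, in flox cells (5.22% of all higher) and in flox Cre cells (4.18%), and 1 of 4 with DMSO in wild-type cells (6.73%). The class I medians with KLA were 0.45, 0.52 and 0.55, against -0.45, -0.62 and -0.42 over all regions. Without KLA replicate 1 of the flox Cre cells, 2 regions were called there.

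The HDAC3 inhibitor RGFP966, which the study added at serum starvation before KLA, was followed by lower H3K27ac at the 3 class I promoters listed. These were of B2m, H2-D1 and Tapbp, and the falls were short of the 2-fold limit. None of the 4 regions was called by edgeR (0 of 4, against 36.5% of all), although 3 were lower and 1 higher at an unadjusted p under 0.05, and DESeq2 called 1. At the B2m promoter the DMSO and KLA libraries held 888 and 727 and the RGFP966 and KLA libraries 449 and 367 (log2 difference -0.99 ± 0.19, adjusted p = 9.77e-07 in edgeR). At Tapbp they held 459.8 and 375 and 281 and 264 (log2 difference -0.62 ± 0.19, adjusted p = 0.00324 in edgeR), and at the H2-D1 promoter 499 and 409.8 and 316 and 276 (log2 difference -0.62 ± 0.19, adjusted p = 0.00285 in edgeR). The inhibitor libraries lay below the DMSO libraries at the 3 promoters. The intergenic H2-D1 site at -3841 bp went the other way, with 209 and 181 and 301 and 266 (log2 difference 0.54 ± 0.20, adjusted p = 0.0131 in edgeR). The median of the 4 was -0.62 against 0.39 over all regions. On TMM it was -0.96, and the B2m promoter was then called lower, as it was in DESeq2. Without DMSO KLA replicate 2 or RGFP966 KLA replicate 1, 1 region was called.

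With the ERK inhibitor and KLA, the log2 difference of NCoR from KLA alone was below 0 at all 23 class I regions on library totals, whereas their median was 0.18 with TMM. Of these, 8 were called lower and 0 higher, beside 48.6% of all NCoR regions called lower, and the median of -0.97 was close to the -1.20 of all regions. This comparison uses the KLA libraries of the NCoR experiment described above, so the comparisons are not independent. Those libraries were not given DMSO by their labels, and their names carry another date code than the ERKi libraries, so that the inhibitor and the library set cannot be told apart. TMM moved all regions by 1.16, called none of the 8 and called the Tapbp promoter higher (1.00). Of all 57573 regions, TMM called 1985 higher and 1946 lower. Fewer class I regions were called without KLA replicate 1, KLA replicate 2 or ERKi replicate 1, as were fewer of all regions. With TMM the share of higher calls among all regions went from 1.29% to 50.5%. A fall of NCoR over all regions and a difference between the libraries in recovered tags cannot be told apart here.

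Among the 8, NCoR at -880 bp from B2m was 30.0 and 46.3 with KLA and 9.30 and 9.48 with ERKi and KLA (log2 difference -2.01 ± 0.51, adjusted p = 0.00569 in edgeR), lost without KLA replicate 2 (-1.66), with TMM (-0.86) and in DESeq2 (-0.85). At the H2-D1 site at -3821 bp it was 188 and 135 and 61.7 and 72.4 (log2 difference -1.26 ± 0.25, adjusted p = 0.00128 in edgeR), lost with TMM (-0.093) and in DESeq2 (-0.08). At the H2-D1 site at -5521 bp it was 121 and 136 and 62.6 and 52.6 (log2 difference -1.15 ± 0.26, adjusted p = 0.00262 in edgeR), lost with TMM (0.0097) and in DESeq2 (0.022). At all 3 the ERKi libraries were below the KLA libraries. The gained H2-T23 region at 695 bp was 60.7 and 60.9 and 29.6 and 25 (log2 difference -1.15 ± 0.42, adjusted p = 0.0323 in edgeR), lost without ERKi KLA replicate 1, ERKi KLA replicate 2, KLA replicate 1 or KLA replicate 2 (-1.28 to -1.04), with TMM (0.01) and in DESeq2 (0.023). The gained B2m region at -1720 bp was 67.2 and 47.7 and 43.1 and 19.8, which did not pass the test (edgeR adjusted p = 0.167). The other calls were at H2-K1 (-118 bp, log2 -1.09), Tap1 (175 bp, -1.5), Tapbp (1262 bp, -1.80) and Nlrc5 (-14098 bp, -1.90). Each of these 4 was lost with TMM, in DESeq2 and without KLA replicate 2 or ERKi KLA replicate 1, and those at Tap1, Tapbp and Nlrc5 also without KLA replicate 1. The Tapbp promoter differed from them, with 118 and 85.8 and 82.8 and 98.2 and overlapping groups.

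PGC1β with ERKi was set against DMSO and KLA libraries of its own experiment and was called at 0 of 27 regions by edgeR and by DESeq2 (0.286% of all by edgeR), with 1 higher at an unadjusted p under 0.05. At the Nlrc5 region at -14019 bp it was 51.3 and 52.1 with DMSO and KLA and 17.2 and 56.9 with ERKi and KLA, and at the B2m region at -1716 bp 65.1 and 70.0 and 54.8 and 53.0. The first pair of groups overlapped. In simulated data of this comparison 27% of changed regions were recovered, so that a change of PGC1β at single regions may have been missed.

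In osteoclast culture, p300 on day 4 of RANKL with M-CSF was higher than on day 0 at 6 of 9 class I regions on library totals. This stood beside 62.2% of all p300 regions, with medians of 2.08 and 1.84. All but 1 of the 6 calls were lost with TMM, which moved all regions by -1.61, and all 6 in DESeq2. The calls were also lost without either day 4 library, where fewer of all p300 regions were called too. At the Psmb9 region at 13078 bp p300 was 1.76 and 0 on day 0 and 41.1 and 36.3 on day 4 (log2 difference 4.84 ± 0.92, adjusted p = 0.00112 in edgeR). The day 0 libraries held 2 tags in all, the ratio was 31.2 with a 95% exact counting interval of 8.35 to 263, and the call was lost without day 4 replicate 1 or day 4 replicate 2 (4.85 to 5.02) and in DESeq2 (3.57). This region passed the filter only through its day 4 libraries, so the filter and the direction of the call are not independent. Intron 5 of Tap2 held 2 regions called higher on day 4. At 5971 bp p300 was 5.27 and 0 and 29.3 and 26.1 (log2 difference 2.90 ± 0.78, adjusted p = 0.00707 in edgeR), lost without day 4 replicate 1 or day 4 replicate 2 (3.04 to 3.20), with TMM (1.29), in DESeq2 (1.64) and with the replicate number as a block (3.32). At 6277 bp it was 7.03 and 19.2 and 47.9 and 51.0 (log2 difference 2.08 ± 0.62, adjusted p = 0.0119 in edgeR), lost without day 4 replicate 1 or day 4 replicate 2 (1.95 to 2.04), with TMM (0.48) and in DESeq2 (0.49). The Tap2 region at -971 bp was 3.52 and 2.13 and 24.4 and 21.6 (log2 difference 2.84 ± 0.71, adjusted p = 0.00511 in edgeR), lost without day 4 replicate 1 or day 4 replicate 2 (2.82 to 3.0), with TMM (1.25), in DESeq2 (1.44) and with the replicate number as a block (2.94).

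Nlrc5 gave the other day 4 calls. At -13947 bp, the site that gained p300 with KLA in BMDMs, p300 was 12.3 and 8.52 on day 0 and 38.1 and 46.5 on day 4 (log2 difference 1.94 ± 0.60, adjusted p = 0.0142 in edgeR), lost without day 4 replicate 1 or day 4 replicate 2 (1.83 to 2.11), with TMM (0.33) and in DESeq2 (0.47). At -12811 bp it was 0 and 6.39 and 23.5 and 43.1 (log2 difference 3.95 ± 1.02, adjusted p = 0.00585 in edgeR), lost without day 4 replicate 1 or day 4 replicate 2 (3.07 to 4.05), with TMM (2.40) and in DESeq2 (2.15). With 3 tags in all on day 0, the ratio of 17.4 has a 95% exact counting interval of 5.70 to 86.9. This region, too, passed the filter only through its day 4 libraries, so the filter and the direction of the call are not independent. The promoters of B2m and H2-D1 did not pass the test, at 44.8 and 34.1 and 66.5 and 31.8 (edgeR adjusted p = 0.581) and at 24.6 and 27.7 and 76.3 and 38.6 (edgeR adjusted p = 0.0583). ERK1 was called at 0 of 8 regions by edgeR and by DESeq2 (2.35% of all by edgeR), with 3 higher at an unadjusted p under 0.05 and a median of 0.72 against 1.00 (-0.19 and 0.036 with TMM). The second ERK1 day 4 library is titled replicate 2, but its description names it replicate 3 and carries another date code than the other ERK1 libraries of the culture. Its description also lacks the tag NCoRWT that those libraries carry. In simulated data of this ERK1 comparison 8% of changed regions were recovered, so that no lack of change could be read. Summed p300 at the promoter regions of the osteoclast markers Acp5, Ctsk and Ocstamp ranged from 53.2 to 336 over the same libraries and at those of 5 macrophage markers from 279 to 456. In bulk samples a change in the share of a cell type and a change per cell cannot be told apart.

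**Figure D5:**
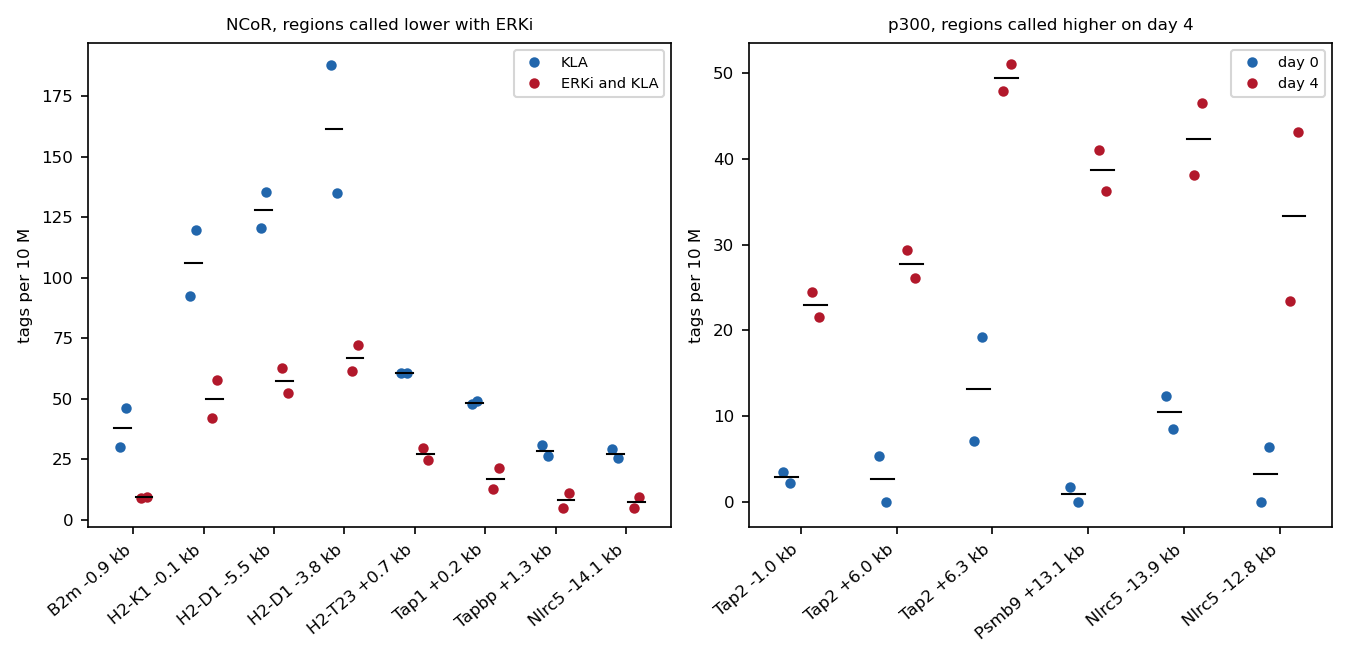
Tags per 10 M in each library at the 8 NCoR regions called lower with ERKi (left) and the 6 p300 regions called higher on day 4 (right), on library totals. Points are libraries, bars the mean of 2; with TMM none of the 8 NCoR calls and 1 of the 6 p300 calls (Psmb9) remained.

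Other genes of the pathway were counted from lists. For p65 with KLA, regions of other class I heavy chain genes (24 tested, of 9 genes) were called higher at 17 and lower at 1, with a median of 1.36. Regions of further processing and loading genes (25 tested, of 8 genes) were higher at 13 and lower at 3, with a median of 1.19. Regions of regulators (116 tested, of 15 genes) were higher at 56 and lower at 7, with a median of 1.18. Of all p65 regions, 57.0% were called higher and 5.43% lower, and their median was 1.46. With TMM the p65 calls became 6 higher and 2 lower of the heavy chain regions, 4 and 8 of the processing regions and 20 and 26 of the regulator regions. The TMM counts over all 52629 p65 regions were 14540 higher and 11205 lower. NCoR was higher at 10 and lower at 2 of 26 heavy chain regions, higher at 9 and lower at 3 of 30 processing regions and higher at 27 and lower at 17 of 117 regulator regions, beside 23.4% higher and 16.7% lower of all. HDAC3 was higher at 10 and lower at 1 of 23, higher at 10 and lower at 1 of 22, and higher at 30 and lower at 16 of 109, beside 27.5% and 11.3% of all. p300 was higher at 6 and lower at 1 of 19, higher at 4 and lower at 2 of 20, and higher at 42 and lower at 24 of 127, beside 42.1% and 12.9% of all. With TMM the p300 calls were 5 and 3, 2 and 4, and 28 and 39, beside 22267 higher and 16245 lower of all 67998.

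Psme2, a subunit of the proteasome activator PA28, held the processing region with the lowest p for higher binding in all 9 KLA comparisons of factor binding, at 792 to 838 bp from its TSS. NCoR there was 19.1 and 15.3 with Veh and 153 and 156 with KLA (log2 fold change 3.16 ± 0.30 (SE), edgeR adjusted p = 6.46e-05). The H3K27ac region of Psme2 at -37 bp was called higher with KLA in flox, flox Cre and DMSO cells, at log2 fold changes of 1.01, 1.14 and 1.09. For the regulators, H3K27ac at 35 bp from Irf1, which encodes an activator of class I genes, was 88.0 and 66.2 in WT and 193 and 169 in NKO cells with KLA (log2 fold change 1.23 ± 0.20 (SE), edgeR adjusted p = 0.000274). Its KLA response was larger in NKO than in WT cells by a log2 value of 1.47 ± 0.29 (edgeR adjusted p = 0.00747). This was the only region of the 3 lists called in either comparison. The ERKi comparison of NCoR called 0 higher and 12 lower of 27 heavy chain regions, 0 and 18 of 31 processing regions, and 1 and 54 of 123 regulator regions on library totals, beside 0.634% higher and 48.6% lower of all NCoR regions. With TMM these became 0 and 2, 0 and 0, and 4 and 3, beside 1985 higher and 1946 lower of all 57573. With RGFP966, 4 of 9 heavy chain regions were called higher (Cd1d1, H2-T3 and Mr1) and 0 lower, 0 of 14 processing regions higher and 1 lower (Psmb10), and 8 of 42 regulator regions higher and 3 lower, beside 26.9% higher and 9.53% lower of all regions. The regulator regions with the lowest p were of Ifnb1, which encodes interferon β (log2 value 2.23), and Stat2, a transcription factor of interferon signalling (-1.23). With TMM the counts were 3 and 2, 0 and 5, and 6 and 11, beside 4031 higher and 4742 lower of all 25045.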

How the data were processed

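ChIP-seq libraries were analysed from the deposited raw tag counts per region. The authors aligned reads to mm10 with Bowtie2, made tag directories and called peaks with HOMER, merged peaks over conditions and counted at most 3 tags per position. H3K27ac was counted over open-chromatin regions. Tool versions are not given in the sources used here. Regions with at least 4 tags (factors) or 16 tags (H3K27ac) in at least 1 library were tested in edgeR 4.0.16 (R 4.3.3; quasi-likelihood F-test, two-sided, group means, header totals as library sizes), with Benjamini-Hochberg adjustment over all regions of the table. Each group held 2 libraries of 4.30 to 21.5 M tags. TMM, DESeq2 1.42.0, no filter, no fold minimum, a replicate block and leaving out each library were the alternatives. DESeq2 set its own scale from the counts, so that it changed the scale as well as the test. Scripts were tested on simulated data, in which 200 regions drawn from the whole table were changed 3-fold. The share recovered is thus not specific to the class I regions. Region-level values were computed with Python 3.11.15.

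The regions named are, per gene and table, the promoter region (within 2000 bp of the TSS) and the distal region with the highest mean level, and the called region with the lowest p per direction. Other called regions were named after their values were seen. The members and lists were chosen with earlier results of these data known. The 30 samples without a count column, inputs by their labels, were not analysed here.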

Additional observations from a re-analysis of the deposited data

How the results depend on the processing

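Of 51 called results at the class I regions, 9 were called under every alternative, 12 with every library left out in turn, and 25 were lost with TMM, 28 in DESeq2, 6 with the replicate block and 0 without the filter. Counts of called regions with TMM and in DESeq2 were 3 and 2 for p65, 1 and 1 for PU.1, 8 and 8 for p300 with KLA, 1 and 1 for NCoR with ERKi, 1 and 0 for p300 on day 4, 2 and 2 for H3K27ac with KLA in Pgc1b flox, in flox Cre and with DMSO, and 1 and 1 for RGFP966. With no fold minimum they were 16 for PU.1, 10 for p300 with KLA, 2 for H3K27ac in WT, in Pgc1b flox and in flox Cre, 3 with DMSO, 4 for RGFP966, and 4 with Veh and 3 with KLA for Cre. With the replicate block they were 1 for ERK1 and 1 for PGC1β with DMSO. The replicate numbers did not pair the libraries (31 correlations of -0.0266 to 0.0255). DESeq2 set its own scale from the counts, so its losses and those with TMM are not separate results. The cause of the changes under the alternatives was not tested.

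With 1 library left out, counts ranged from 2 to 8 for NCoR, 0 to 12 for HDAC3, 1 to 10 for p65, 0 to 1 for PU.1, 1 to 3 for PGC1β, 0 to 1 for ERK1, 1 to 5 for p300, 1 to 3 for PGC1β with DMSO, 2 to 10 for NCoR with ERKi, 0 to 7 for p300 on day 4, 1 to 2 for H3K27ac in NKO and in Pgc1b flox Cre, and 0 to 1 for RGFP966. Such fits hold 1 library in a group, and for NCoR, HDAC3, NCoR with ERKi and p300 on day 4 the counts over all regions changed too. These ranges cannot be read as particular to the class I regions. Joining centres within 1000 bp gave 27 sites.

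With TMM, 69 of 296 log2 values at class I regions changed sign, 59 of them called on neither scale and 17 and 11 of them for NCoR with ERKi and p65. Those called on at least 1 scale, with TMM and in DESeq2, were, for NCoR with ERKi, 0.010 and 0.023 at H2-T23 (695 bp), 0.0097 and 0.022 at H2-D1 (-5521 bp), 0.081 and 0.096 at H2-K1 (-118 bp), and 1.00 and 1.02 at Tapbp (110 bp). For p65 they were -0.072 and -0.037 at B2m (1069 bp), -0.18 and -0.14 at Tapbp (122 bp), -0.18 and -0.15 at H2-K1 (-61 bp), -1.11 and -1.07 at Psmb8 (128 bp), -0.22 and -0.18 at H2-D1 (-3822 bp), and -0.022 with TMM at H2-D1 (-180 bp).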
